A study of Obba rivulosa with 6 samples.

Results

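In the white-rot fungus Obba rivulosa growing on spruce wood, 17 of 12424 gene models held a nearly level mRNA amount at weeks 2 and 4 of culture and had lost most of it by week 8. Their level at week 8 was between 2.00% and 34.0% of their mean over weeks 2 and 4, with a median of 22.0%. They were chosen by rule from FPKM values, which are read counts scaled to the length of the gene model and the size of the library. With 1 added to each FPKM value, the lowest library of weeks 2 and 4 had to be at least 2.5 times the higher library of week 8, the means of weeks 2 and 4 had to be less than 1.5 times apart, and all 4 early libraries had to reach 10 FPKM. Because the rule used every library, the levels and folds of these models are described here without a test.

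The 6 libraries were made from the monokaryotic strain 3 A-2, for which the labels name FBCC1032 as the dikaryotic strain. The fungus was pre-grown in liquid medium, homogenised, and grown on sticks of Norway spruce over water agar in the dark, and colonised sticks were frozen after 2, 4 or 8 weeks. Each week had 2 libraries, and by the labels only the age of the culture differed between the weeks. The labels do not say whether libraries of one week came from separate cultures, so the spread between them may be partly technical, and no sequencing batch or date is given. Library totals ran from 4908235 to 5154075 expected counts, and each library of a week is named by its replicate number. RNA was taken from whole colonised sticks, so less mRNA per hypha and fewer hyphae that use a gene cannot be told apart.

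White-rot basidiomycetes break down lignin together with the cellulose and hemicelluloses of wood, using secreted peroxidases, oxidases and carbohydrate-active enzymes. The released sugars feed central carbon metabolism, and the substrate changes in make-up as decay goes on. The study compared culture ages to follow the needs of the fungus during long growth on wood. The files pair the gene models with no product names and no annotation was used here, so no role is given to any of the 17 models. They are named by the JGI protein ID within the identifier.

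A level amount followed by a loss was rare. Of the 12424 gene models, 7166 reached 10 FPKM in all 4 libraries of weeks 2 and 4, and 4740 of these were less than 1.5 times apart between weeks 4 and 2; these are called level models below. In 373 level models (7.87%) both week 8 libraries lay below all 4 early ones, and in 2553 (53.9%) both lay above. A distance of at least 1.5 times was reached by 79 models on the low side and 314 on the high side. At 2.5 times, 17 models (0.359%) were on the low side and 42 (0.886%) on the high side, and at 10 times 2 were on each side.

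This balance depended on the scaling of the week 8 libraries. On the log2(FPKM + 1) scale the median level model was 0.36 higher at week 8 than over weeks 2 and 4, while the 17 models lay between 5.46 and 1.44 lower, with a median difference of -2.18. When FPKM values were divided by TMM factors, which set the bulk of the models equal between libraries, the median of 4858 level models was 0.05 higher at week 8 and that of the 17 models was 2.48 lower (difference -2.48). The 2.5-fold bound was then met by 28 models on the low side, all 17 included, and by 31 on the high side. Under this scaling 1008 level models lay entirely below at week 8 and 1182 entirely above.

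**Figure D1:**
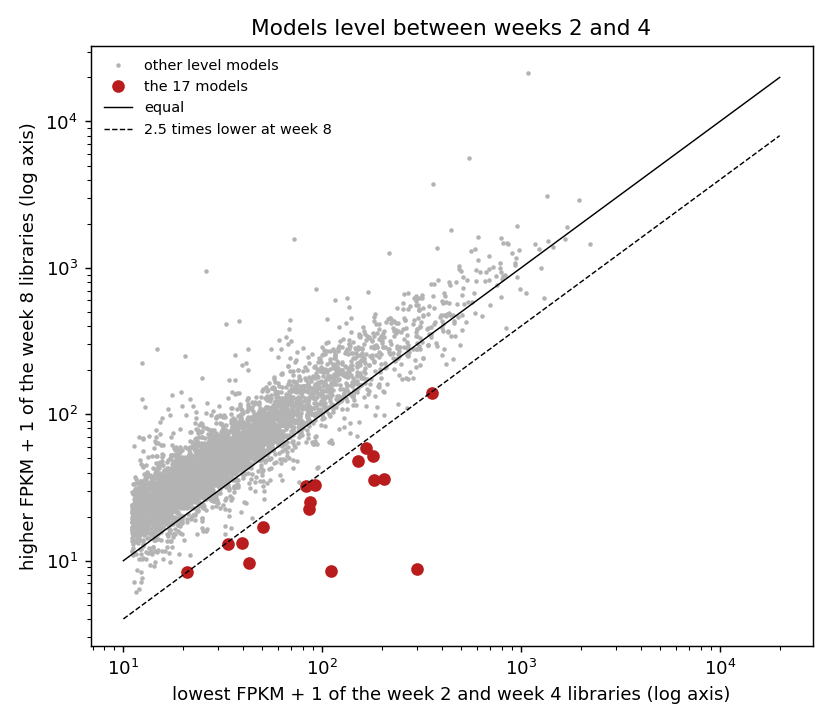
Each point is 1 of the 4740 level models, with the lowest FPKM + 1 of the 4 libraries of weeks 2 and 4 on the x axis and the higher FPKM + 1 of the week 8 libraries on the y axis, both on log axes. The 17 models (red) lie on or under the dashed line at 2.5 times lower, and most grey points lie above the solid line of equal values. A lowest value is set against a higher one here, so models without change also tend to lie above that line.

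The deepest loss was that of jgi|Obbri1|278255|CE278078_466, a model of 1658 bases. It had 355 and 367 FPKM in the week 2 libraries, 321 and 299 FPKM in those of week 4, and 7.81 and 5.59 FPKM in those of week 8. Its lowest early value was 34.0 times the higher week 8 value, and 2.00% of its early mean was left. In rank order of FPKM it was model 315 and 290 in the week 2 libraries, 351 and 408 at week 4, and 9012 and 9583 at week 8. Week 8 stood far below weeks 2 and 4. The libraries lay close together within week 2 and within week 4, and those of week 8 differed 1.34 times (FPKM + 1). In the count fit (edgeR, TMM) its log2 fold change was -5.83 ± 0.23 (SE) for week 8 against week 4 and -6.08 ± 0.24 against week 2. The week 8 value rests on 66 and 48 expected counts, against 2440 to 3119 in the early libraries for the same model.

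Second in depth was jgi|Obbri1|469694|CE469517_108, of 1219 bases. Its libraries held 127 and 119 FPKM at week 2, 138 and 110 FPKM at week 4, and 7.46 and 6.22 FPKM at week 8. Weeks 2 and 4 overlapped, with means of 124 ± 19.7 FPKM at week 4 and 123 ± 5.58 at week 2 (SD, n = 2 each), and week 8 stood at 6.84 ± 0.88 FPKM. Its ratio by the rule was 13.1, and the log2 fold change was -4.47 ± 0.19 (SE, edgeR) for week 8 against week 4. It and model 278255 were the only level models past 10 times on the low side.

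Model jgi|Obbri1|439117|CE438940_1026 was the least even of the 17 before its loss. It had 275 and 348 FPKM at week 2, 461 and 182 FPKM at week 4, and 34.4 and 21.6 FPKM at week 8. At week 4 replicate 1 lay 2.52 times above replicate 2 (FPKM + 1), so its level course from week 2 to week 4 is a statement about means, 322 FPKM at week 4 and 311 FPKM at week 2, and not about single libraries. The higher week 8 value was 5.18 times under the lowest early one (FPKM + 1), and 8.84% of the early mean was left.

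A close early plateau was seen in jgi|Obbri1|798553|fgenesh1_kg.270_#_9_#_Locus1261v1rpkm108.84. Its values were 242 and 203 FPKM at week 2, 208 and 223 FPKM at week 4, and 35.1 and 31.0 FPKM at week 8. Weeks 2 and 4 overlapped and 15.1% of the early mean was left, with a log2 fold change of -3.00 ± 0.19 (SE, edgeR) for week 8 against week 4. These 4 models were the ones whose ratio by the rule exceeded 5.

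Model jgi|Obbri1|835013|gm1.4993_g had already the lowest week 4 mean relative to week 2 among the 17. It stood at 82.4 and 66.8 FPKM at week 2, 69.5 and 41.6 FPKM at week 4, and 8.59 and 5.67 FPKM at week 8. The week 4 mean of FPKM + 1 was 0.748 times that of week 2, the weeks 2 and 4 overlapped, and 11.0% of the early mean was left at week 8. Its ratio by the rule was 4.45.

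**Figure D2:**
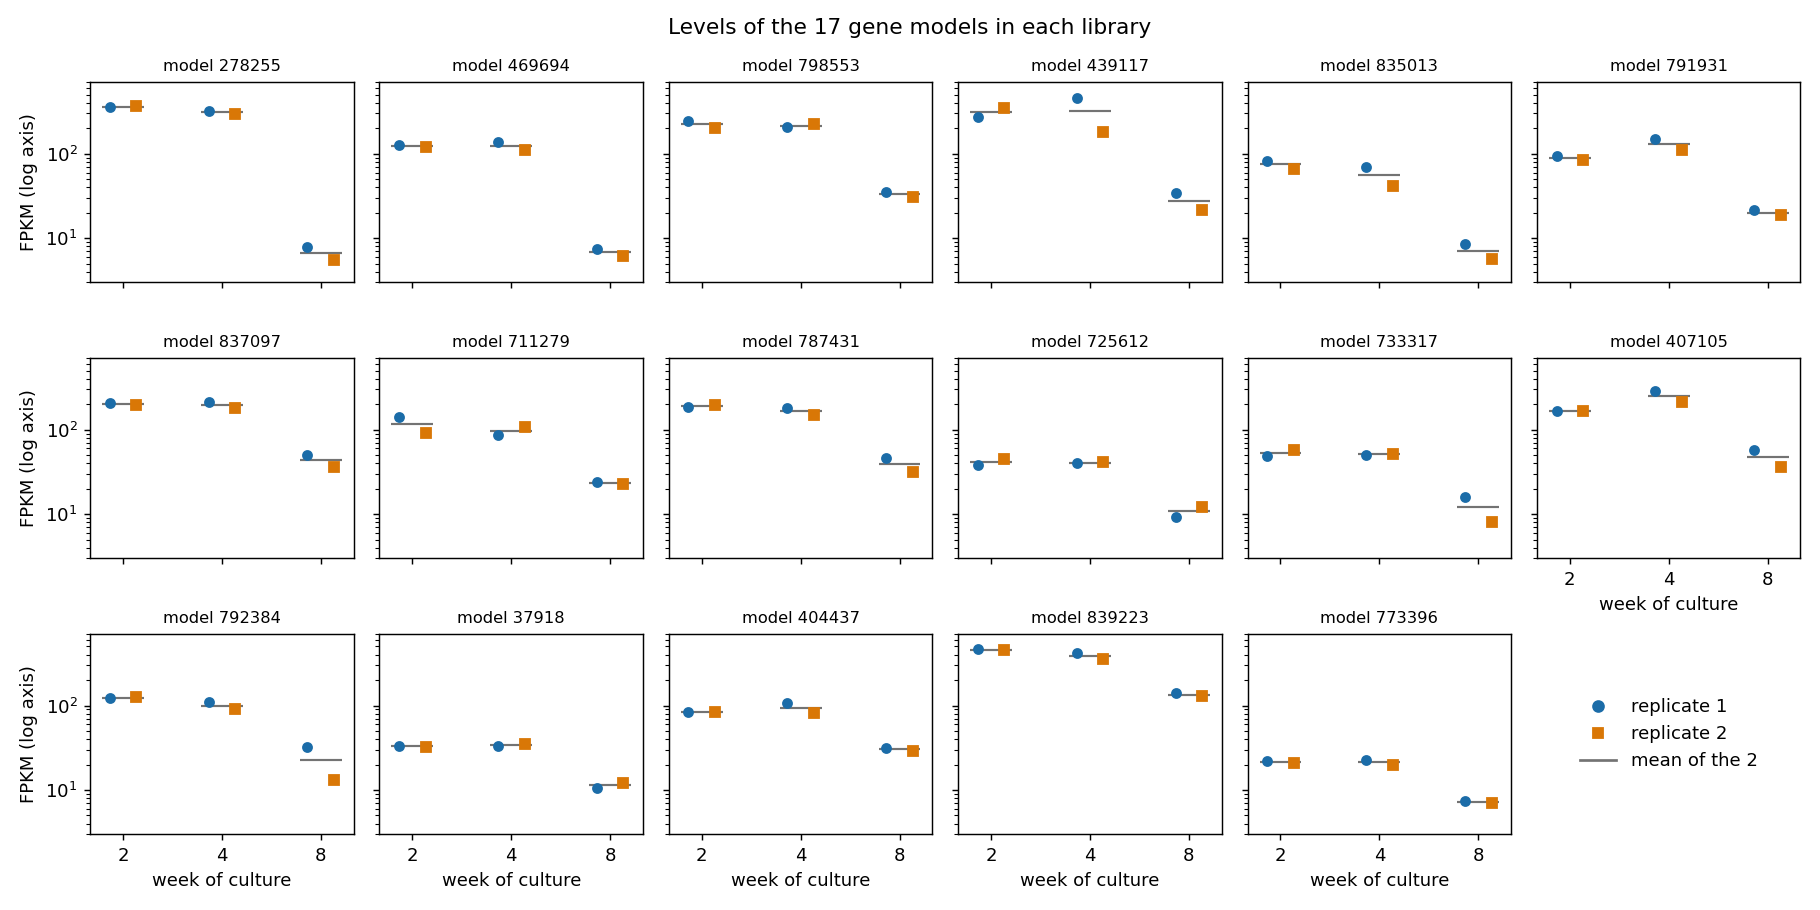
FPKM (log axis) of each of the 17 models in the 2 libraries of weeks 2, 4 and 8 (circles replicate 1, squares replicate 2, bars the mean), in order of the ratio by the rule. In every panel both week 8 points lie under the 4 earlier ones, and model 439117 shows the widest gap between the week 4 libraries.

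A second set of 8 models kept 18.4% to 26.2% of the early mean, with ratios between 2.78 and 3.83. The model jgi|Obbri1|791931|fgenesh1_kg.47_#_47_#_Locus1376v1rpkm98.54 had 93.0 and 85.3 FPKM at week 2, 149 and 110 FPKM at week 4, and 21.5 and 18.8 FPKM at week 8. Both week 4 libraries lay above both week 2 libraries, within the 1.5-fold bound. It is the 1 model of the 17 with counts that are not whole numbers. Counts of this kind come about when a read could belong to several similar models, so its level is less certain.

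The same order of weeks was seen in jgi|Obbri1|407105|CE406928_179, with 168 and 165 FPKM at week 2, 285 and 214 FPKM at week 4, and 57.7 and 36.4 FPKM at week 8. Its week 4 mean of FPKM + 1 was 1.49 times that of week 2, just under the limit of 1.5, and 22.6% of the early mean was left. These 2 models were the ones with both week 4 values above both week 2 values.

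Flat early values were found in jgi|Obbri1|837097|gm1.7077_g, with 209 and 197 FPKM at week 2, 212 and 178 FPKM at week 4, and 50.6 and 35.8 FPKM at week 8. Model jgi|Obbri1|787431|fgenesh1_kg.1_#_288_#_Locus6530v1rpkm10.19, the longest of the 17 at 1965 bases, had 185 and 197 FPKM at week 2, 179 and 150 FPKM at week 4, and 46.7 and 31.4 FPKM at week 8. Both were left with about the same share of their early mean, 21.7% and 22.0%.

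For jgi|Obbri1|711279|gw1.199.26.1 the spread lay at week 2, with 141 and 92.5 FPKM there, 85.7 and 107 FPKM at week 4, and 24.3 and 22.9 FPKM at week 8. The week 2 replicates differed 1.52 times (FPKM + 1), the widest gap of the 17 in that week, and the weeks 2 and 4 overlapped. Week 8 stood at 23.6 ± 1.01 FPKM, against 96.2 ± 14.8 FPKM at week 4 (SD, n = 2).

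Model jgi|Obbri1|725612|e_gw1.30.63.1 was even throughout the early weeks, with 38.5 and 45.2 FPKM at week 2, 40.1 and 40.9 FPKM at week 4, and 9.38 and 12.2 FPKM at week 8. The short model jgi|Obbri1|733317|e_gw1.105.10.1, of 429 bases, had 49.2 and 56.8 FPKM at week 2, 50.3 and 52.0 FPKM at week 4, and 16.1 and 8.17 FPKM at week 8. Its week 8 values rest on 33 and 17 expected counts and differed 1.87 times (FPKM + 1).

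The shortest model, jgi|Obbri1|792384|fgenesh1_kg.55_#_28_#_Locus15464v1rpkm0.25, of 239 bases, had the widest gap at week 8. It stood at 122 and 126 FPKM at week 2, 109 and 90.9 FPKM at week 4, and 32.1 and 13.0 FPKM at week 8. The week 8 libraries differed 2.36 times (FPKM + 1) on 34 and 14 expected counts, so between 11.6% and 28.7% of the early mean was left, depending on the library. Counts in its early libraries were 93 to 134, which is few for a model listed above 90 FPKM and follows from its length.

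The remaining 4 models stood just inside the bound, with ratios between 2.51 and 2.59. Model jgi|Obbri1|839223|gm1.9203_g was the most abundant of the 17 early on, with 461 and 450 FPKM at week 2, 414 and 355 FPKM at week 4, and 140 and 128 FPKM at week 8. It stayed among the better expressed models at week 8, at rank 991 and 1165, after ranks of 210 and 211 at week 2. Its log2 fold change was -1.81 ± 0.17 (SE, edgeR) for week 8 against week 4.

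Early values of jgi|Obbri1|404437|CE404260_32080 were 84.0 and 83.8 FPKM at week 2 and 107 and 81.4 FPKM at week 4, and its week 8 values were 31.5 and 28.9 FPKM. Model jgi|Obbri1|37918|CE37741_274 had 33.5 and 32.7 FPKM at week 2, 33.2 and 34.7 FPKM at week 4, and 10.7 and 11.99 FPKM at week 8. It was the steadiest early on, at 33.5 ± 0.83 FPKM over the 4 libraries (SD). The scarcest model, jgi|Obbri1|773396|estExt_Genewise1Plus.C_380090, had 21.8 and 21.0 FPKM at week 2, 22.7 and 19.97 FPKM at week 4, and 7.34 and 7.12 FPKM at week 8. These last 3 models kept 33.8% to 34.0% of their early mean.

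The 4 level models just outside the bound looked much the same. Model 776458 had a ratio of 2.44, with 267 and 278 FPKM at week 2, 412 and 271 FPKM at week 4, and 109 and 93.2 FPKM at week 8. Models 432528, 763275 and 790817 had ratios of 2.28, 2.21 and 2.20, and kept 29.2%, 30.9% and 35.8% of their early mean. No gap separates the 17 models from those that missed the bound, and 10 of the 17 exceeded a ratio of 3.

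**Figure D3:**
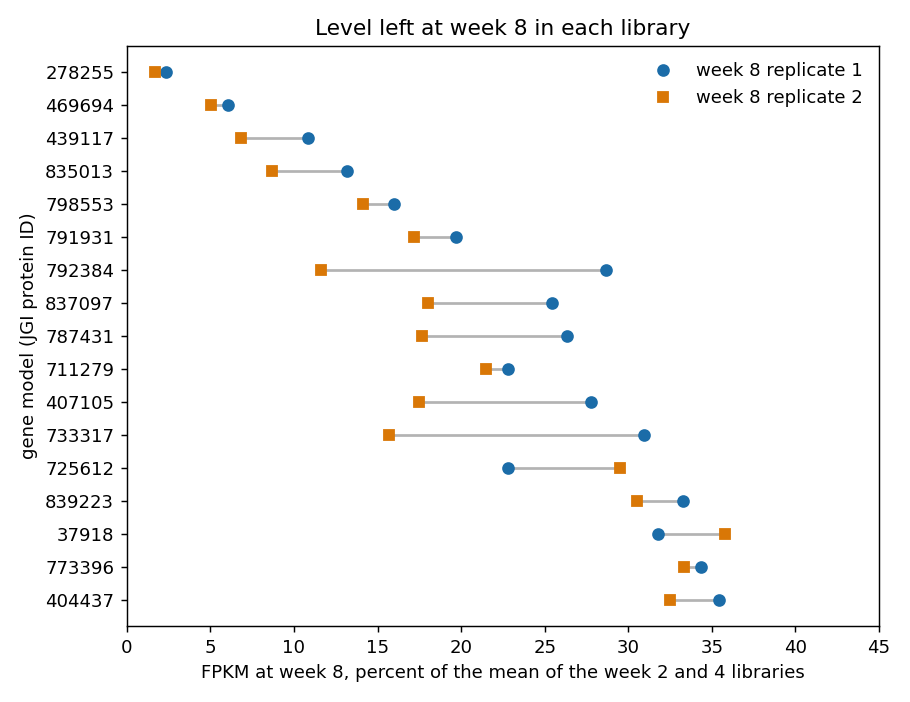
FPKM at week 8 as a percentage of the mean of the 4 libraries of weeks 2 and 4, for each of the 17 models, with circles for replicate 1, squares for replicate 2 and a line joining them. The values run from 1.67% to 35.8%, and replicate 1 lies to the right of replicate 2 in 15 of the 17 models.

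The loss went further in one week 8 library than in the other. Replicate 1 of week 8 held more than replicate 2 in 15 of the 17 models, the exceptions being models 725612 and 37918. Over all 4740 level models replicate 1 was the higher in 43.1%. The rule treats both week 8 libraries alike, but it and the classes given next use the values of both. The choice may therefore bear on their order, which was not tested. Among the 373 level models that lay below at week 8, replicate 1 was the higher in 268 (71.8%), and among the 62 of them that were 1.5 to 2.5 times below, in 51 (82.3%). On the other side the order turned: replicate 1 was the higher in 832 of the 2553 models that lay above at week 8 (32.6%) and in 4 of the 42 that lay at least 2.5 times above (9.52%). In most models of each of these 4 classes, the level in replicate 2 was the one farther from the early level. With TMM factors the shares were 88.2% for the 17 models, 47.5% for all level models and 14.3% for the 42. These shares compare 2 libraries and have no replicate of their own, and what sets the libraries apart was not tested.

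The gap between the week 8 libraries was also wider in the median. On the log2(FPKM + 1) scale the median distance between the week 8 libraries was 0.34 in the 17 models, against 0.16 in all level models. At week 4 the medians were 0.26 and 0.24, and at week 2 they were 0.09 and 0.09. The week 8 counts of these models ran from 14 to 726 per library and their early counts from 93 to 3510, and the part of counting error in the wider gap was not tested.

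**Figure D4:**
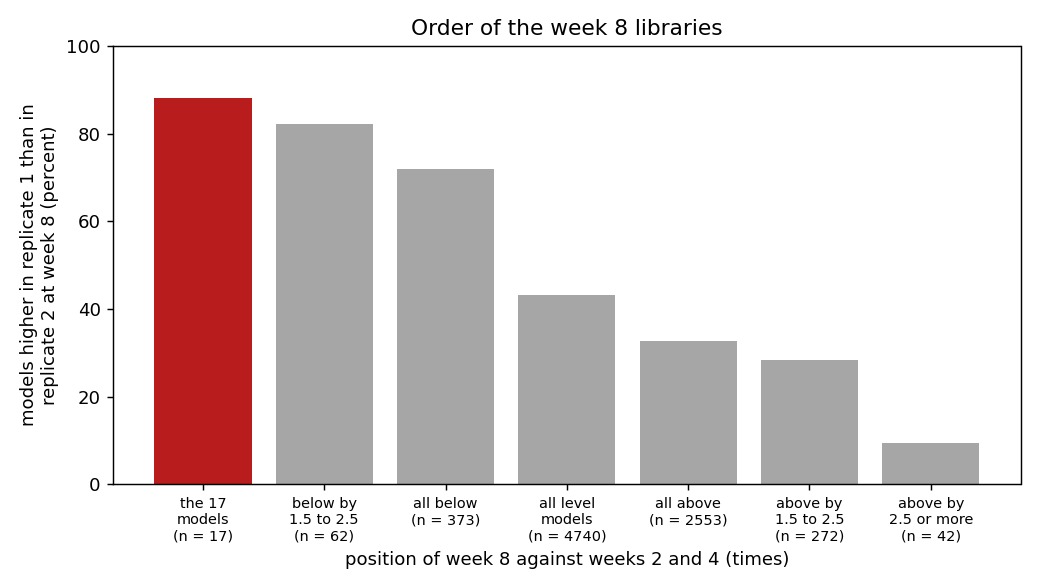
Share of models with a higher FPKM in replicate 1 than in replicate 2 of week 8, in percent, for level models classed by where both week 8 libraries lie relative to all 4 early ones (the classes overlap, and n is given under each bar). The 17 models (red) stand at 88.2%, all level models at 43.1% and those at least 2.5 times above at 9.52%.

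Between weeks 4 and 2 the 17 models moved little, as the rule required. The week 4 mean of FPKM + 1 was higher than that of week 2 in 6 models and lower in 11, with a range of 0.748 to 1.49 times. Within 1.1 times were 8 models (47.1%, against 28.3% of level models). These shares rest on values the rule used: its fall bound takes the lowest early library, which favours close early values. They are a description only. The weeks did not overlap in 6 models, 2 of them higher at week 4 and 4 lower, namely models 839223, 278255, 787431 and 792384. Non-overlap of these weeks was found in 70.6% of the 10889 models tested with counts, many of which are not level. The count fit called 1 of the 17 models changed between weeks 4 and 2, model 791931 with a log2 fold change of 0.50 ± 0.17 (SE), where 37.2% of all models tested were called in either direction. The call did not rest firmly on this model: it was lost when either week 2 library or replicate 1 of week 4 was left out, and when either week 8 library was left out model 407105 was called in its place. A call that was not made does not show that the levels were equal.

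For week 8 the count fit called all 17 models lower at an adjusted p below 0.05 (edgeR, Benjamini-Hochberg over all models), against both week 4 and week 2. Of all 10889 models tested, 20% were called lower against week 4 and 13.7% against week 2. The rule used these contrasts, so the counts follow from the choice of the models. The fitted log2 fold changes ran from -5.83 to -1.81 against week 4 and from -6.08 to -1.80 against week 2.

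Together the 17 models held a small share of the transcriptome, which shrank at week 8. They took 0.342% and 0.345% of the expected counts in the week 2 libraries, 0.383% and 0.294% in those of week 4, and 0.0653% and 0.0514% in those of week 8. The week 4 libraries differed more than those of week 2, and model 439117, with 3510 and 1367 counts there, gave the largest single difference among the 17. Typical members were more abundant than level models early and less so late, with a median of 22.6 FPKM at week 8 and 112 FPKM over weeks 2 and 4, against 44.4 FPKM and 34.4 FPKM for level models.

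A further 32 models at 10 FPKM or more in the early libraries showed the same 2.5-fold distance to week 8 without being level before it. Of these, 25 were lower at week 4 than at week 2 and 7 were higher. They had a median early level of 635 FPKM and kept a median of 7.97%, against 112 FPKM and 22.0% in the 17 level ones. In 14 of the 32 (43.8%) week 8 replicate 1 was the higher library, where it was 15 of the 17. These differences were not tested, since both sets were chosen on the values compared.

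Several features of the gene models were not named in the rule, though model length enters it through the scaling of FPKM. The 17 models were 239 to 1965 bases long, with a median of 1333 bases, against 1502 bases for level models and 1243 for all models. Lengths below 700 bases were found in 4 of them (models 37918, 733317, 711279 and 792384; 23.5%), against 11.1% of level models and 19.2% of all models. Reads shared between similar models touched 1 of the 17 (5.88%), against 7.87% of level models.

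Some model names carry a pair of numbers, read here by JGI naming as the scaffold and the order of the model along it. The order number was not checked. The number read as scaffold was checked only within the names: across 514 such numbers, the counts of models from separate gene predictors rose together (Spearman's rho 0.586 to 0.761, with no genome to check against). For 8 of the 17 models a scaffold number could be read, and the 8 numbers (1, 30, 38, 47, 55, 105, 199 and 270) were all different. Of 363 other models with these scaffold numbers, 170 were level, and in 19 of those both week 8 libraries lay below the early ones. Over all 4740 level models this held for 373 (7.87%), and the difference was not tested. One of the 363 met the 2.5-fold distance without being level. None of the 8 thus shared a scaffold number with another of the 17, as far as this could be read, and the other 9 could not be placed.

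Within 5 order numbers of a model and from the same predictor, 8 models were found for 6 of the 17. How near they lie on the genome is not known here. None was among the 17, and their level at week 8 had a median of 149% of the early mean. In 2 of the 8 the week 8 mean lay below the early mean. Model 791933, 2 order numbers from model 791931, kept 56.6% of it, and model 798549 kept 7.94%. Model 798549, 4 order numbers from model 798553 on scaffold number 270, had 62.3 and 54.1 FPKM at week 2, 2.77 and 2.01 FPKM at week 4, and 2.33 and 2.48 FPKM at week 8. It was thus already low at week 4, when model 798553 still stood at 215 ± 11.2 FPKM (SD, n = 2).

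The names of 4 of the 17 models, like those of 2849 models in all, end in a locus number and a value marked rpkm. The name does not say which RNA sample this value came from. These values were 109 for model 798553, 98.5 for 791931, 10.2 for 787431 and 0.25 for 792384. By this value the models ranked 369, 409, 1863 and 2777 of 2849. By FPKM they ranked 1518, 1937, 1344 and 1862 at week 8, and 167, 411, 231 and 397 over weeks 2 and 4. Models 798553 and 791931 thus stood nearer to their early rank by the value in the name, and models 787431 and 792384 stood below both their ranks. Over the 2849 models, Spearman's rho between the name's value and the mean FPKM was 0.729, 0.699 and 0.724 at weeks 2, 4 and 8, as a description across gene models.

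The choice of models was also read in a library that had not been used to make it. The other side of each ratio still came from libraries that had made the choice. Libraries of the same week may also share a culture, and the level models given beside were not chosen by a fall. The counts that follow are therefore a description and not an independent test. Chosen without week 8 replicate 2, 18 models met the rule. In the library left out all 18 lay below every early library, where 12.6% of level models did so. Chosen without week 8 replicate 1, 39 models met it, and in that library 38 lay below, where 10.4% of level models did so. Both times 17 models passed 2.5 times in the library left out. That count was fixed in advance, since a level model past the bound in both week 8 libraries is 1 of the 17. The shares of level models past 2.5 times are likewise these same choices. The 0.823% in replicate 2 are the 39 models, and the 0.380% in replicate 1 are the 18. The 22 models added without replicate 1 were past the bound in replicate 2 and short of it in replicate 1. Without 1 of the early libraries 16 to 20 models met the rule, and in the early library left out 16 or 17 of them stood at least 2.5 times above both week 8 libraries, where 0.570% to 0.738% of level models did so. Without week 4 replicate 2 this was 16 of 20. In that library 1 of the 20 lay below the higher week 8 library, with a ratio of 0.697.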

How the data were processed

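Each library has 1 deposited table of gene models with model length, expected count and FPKM. Per the submitters' processing notes, the tools include BWA, Bowtie and RSEM; what each did, its version and its settings are not given in the sources. Per the file headers, the expected counts are the authors' RSEM-style estimates with no normalization, and the authors' FPKM values are scaled to model length and library size. A model without a row was taken as 0. The members, lists and bounds were chosen with earlier results of these data known. All 17 models are named, together with the 4 nearest non-members and neighbours by order number.

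Expected counts were rounded and fitted in edgeR 4.0.16 (R 4.3.3; quasi-likelihood test, TMM, filterByExpr with a minimum count of 10, a mean per week, all 6 libraries), with 10889 models tested and Benjamini-Hochberg adjustment. SEs come from the F statistic. Tried beside it were limma 3.58.1 on log2(FPKM + 1), DESeq2 1.42.0, other scalings, bounds and pseudocounts, and leaving out each library. Totals per library ran from 4908235 to 5154075. The counts of the 2 libraries of a week differed beyond counting noise, with a chi-square over its degrees of freedom of 3.25, 24.8 and 12.1 at weeks 2, 4 and 8, so none was taken as a library deposited a second time; this does not show that they came from separate cultures.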

Additional observations from a re-analysis of the deposited data

How the results depend on the processing

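The number of models meeting the rule was 17. It became 29 with a fall of 2 times, 10 with a fall of 3 times, 26 with weeks 2 and 4 within 2 times, and 28 with FPKM divided by TMM factors, which lowers week 8 values. Leaving out 1 library gave 16 to 39 models, 39 when replicate 1 of week 8 was dropped and 18 when replicate 2 of week 8 was dropped; the cause was not tested. The count of 17 models called lower at week 8, against week 4 or week 2, stayed at 17 in the alternatives run, which the choice of the models on this fall fixes and which says nothing of stability. Fits without 1 library leave a week with a lone library, whose spread is taken from the other weeks. For week 4 against week 2, the 1 call became 2 with the replicate block, 0 with DESeq2 and 0 with limma on log2(FPKM + 1), and 0 to 1 when 1 library was left out; the cause was not tested. The model called was 791931, 407105 or 835013, depending on the alternative. At an unadjusted p below 0.05, edgeR, DESeq2 and limma each had 2 of the 17 models, where they had 5116 of 10889, 4314 of 11217 and 5054 of 11749 models in all.

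No pairing by equal replicate number was seen: same-numbered deviations correlated at 0.01, -0.07 and -0.15 between weeks 2 and 4, 2 and 8, and 4 and 8. These values cannot show whether libraries were paired in another order or with a small shared effect. With the replicate block 3779 models were called between weeks 8 and 4, and with numbers crossed at week 8, an alternative chosen after seeing the data, 4426, against 4134 without it. As a share of summed FPKM in place of counts, the 17 models held 0.364% at week 2, where they held 0.343% of counts. Depth limits the short models most, whose week 8 counts were as low as 14.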
